A study of Mus musculus with 12 samples.

Results

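The microRNAs miR-23, miR-27 and miR-24 are made together, each transcript carrying 1 hairpin of each kind, from 2 paralogous clusters. The a cluster holds miR-23a, miR-27a and miR-24-2, and the b cluster holds miR-23b, miR-27b and miR-24-1. Described here are the main, 3p arms of these hairpins: miR-23a-3p, miR-27a-3p, miR-23b-3p, miR-27b-3p and miR-24-3p (in the table mmu-mir-23a-3p, mmu-mir-27a-3p, mmu-mir-23b-3p, mmu-mir-27b-3p and mmu-mir-24-3p). They are 5 of the 1251 rows of the deposited table, chosen by name. All 5 were above the floor of the values in all 12 libraries and were among the 544 miRNAs tested.

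Small RNA was profiled in dorsal skin of untreated C57Bl6 mice aged 4 weeks and in cutaneous squamous cell carcinoma (SCC) of C57Bl6 mice older than 35 weeks. The tumour-bearing mice had received chronic ultraviolet radiation (UVR) at 2.5 kJ per square metre, 3 times a week. Mice were wild type (WT) or TAp63-/- (knockout, KO), lacking TAp63, the p63 isoforms with the N-terminal transactivation domain. There were 3 WT skin, 3 KO skin, 2 WT SCC and 4 KO SCC libraries. Tumour, age, UVR and the naming series of the libraries (1 for skin, another for tumours) cannot be told apart in this design, and neither can fewer cells of a type and less RNA per cell. The labels do not say that each library is a separate mouse, so p-values measure the spread between libraries, which may be partly technical.

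miR-23, miR-27 and miR-24 share a transcript but not a seed, so each represses its own targets. miR-23a and miR-23b are known to repress glutaminase, and MYC is known to lower both. miR-27 is known for limiting fat-cell formation and for its role in blood vessel sprouting. miR-24 is known as a brake on the cell cycle and as a miRNA that increases in differentiating keratinocytes.

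The mature sequences show what can and cannot be told apart in this table. They are from RefSeq (GRCm38.p6, the build also called mm10), written 5′ to 3′ with the seed, bases 2 to 8, in capitals.
miR-23a-3p: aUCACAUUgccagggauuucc
miR-27a-3p: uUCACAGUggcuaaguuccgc
miR-27b-3p: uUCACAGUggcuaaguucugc
miR-24-3p: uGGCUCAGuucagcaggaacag
miR-23b-3p is named only. miR-27a-3p and miR-27b-3p share their seed and 20 of 21 bases, with the substitution C19U, counted from the 5′ end of miR-27a-3p. How the authors assigned reads that fit both paralogs is not given in the sources used here, so the division of miR-27, and of the closely similar miR-23 pair, between a and b is uncertain.

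miR-24-3p is the same sequence from both clusters, so its level belongs to neither alone. Both hairpins are printed because their 5p arms, unlike the 3p arm, differ and so mark the locus; capitals are the 5p and 3p arms.
Mir24-2 (a cluster): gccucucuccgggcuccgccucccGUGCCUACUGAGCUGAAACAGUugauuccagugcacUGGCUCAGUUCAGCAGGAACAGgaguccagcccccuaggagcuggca
Mir24-1 (b cluster): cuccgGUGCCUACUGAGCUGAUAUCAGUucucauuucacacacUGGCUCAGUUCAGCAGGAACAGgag
The 5p arms share their first 16 bases and differ after that, as the capitals show in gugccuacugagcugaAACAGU for miR-24-2-5p and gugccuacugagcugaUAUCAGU for miR-24-1-5p.

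In GRCm38.p6 the a cluster spans 404 bp of the plus strand of chromosome 8, from 84208518 to 84208921. The hairpins of miR-23a and miR-27a overlap no annotated host gene in GENCODE M21, and the last 2 bp of the miR-24-2 hairpin overlap an exon of the long intergenic noncoding RNA Gm26532. The nearest protein-coding gene is Zswim4, on the opposite strand and 2086 bp from the miR-23a hairpin. The b cluster spans 792 bp of the plus strand of chromosome 13, from 63300484 to 63301275, inside 2010111I01Rik (Aopep, an aminopeptidase gene) on the same strand and in an intron of Fancc on the opposite strand. The miR-23b hairpin is intronic in 2010111I01Rik, and those of miR-27b and miR-24-1 lie within exons of noncoding or nonsense-mediated-decay transcripts of it.

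Values are the authors' log2 levels, quantile normalized between libraries, and none is below the log2 of 10, called the floor here. In such data a value is the value of a rank: the most abundant miRNA is at 20.00 in every library, the next at 19.25, the third at 18.75 and the fourth at 18.49. Read totals are not kept in these values, and the depth is therefore unknown. Libraries had 370 to 545 miRNAs above the floor. WT SCC replicate 2, on which some results below rest, had the highest summed level of striated muscle miRNAs among tumours, at 14.94 (log2). The other 5 tumours were at 12.22 to 13.97 and skin at 16.02 to 16.46, and the part of muscle in the results was not tested. KO SCC replicate 2, on which other results rest, had the lowest miR-141-3p (11.73) and miR-200c-3p (8.99) of all libraries, both keratinocyte markers. Its keratinocyte miR-205-5p (17.72) and miR-203-3p (16.51) were not the lowest. Its leukocyte miR-223-3p (13.30), miR-142-3p (12.22) and miR-142-5p (15.49) were the highest of all libraries, and miR-150-5p (9.67) was not. The part of these cells in the results was not tested either.

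**Figure D1:**
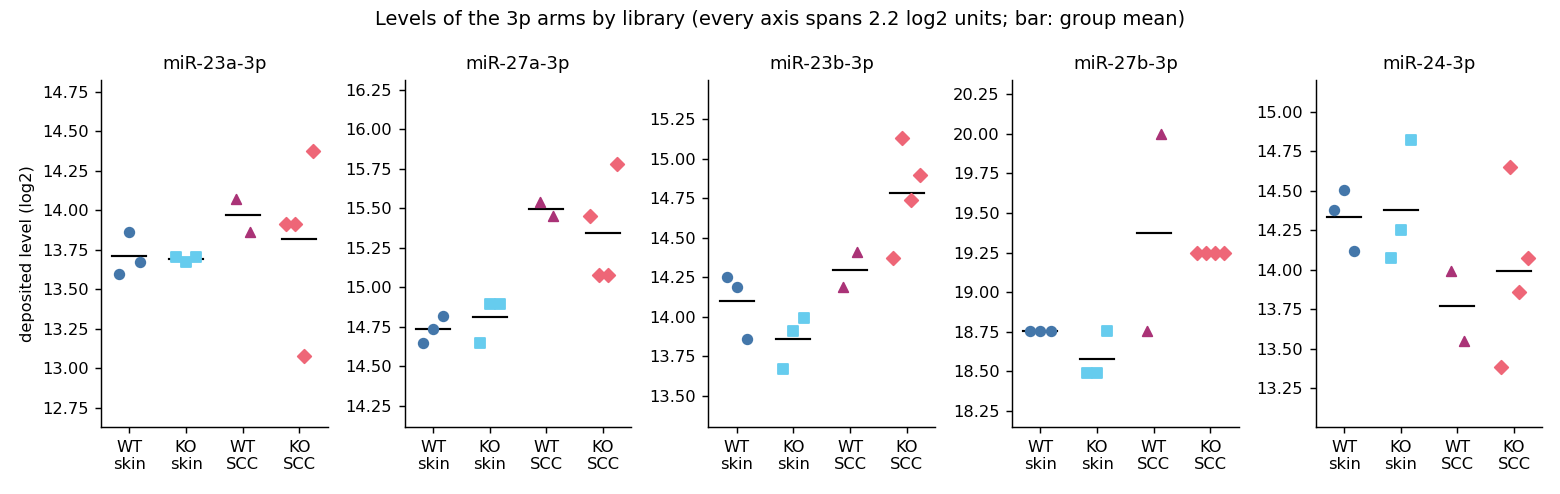
Deposited log2 level (vertical axis) of each 3p arm in the 12 libraries, by group (WT skin n = 3, KO skin n = 3, WT SCC n = 2, KO SCC n = 4); points are libraries and bars are group means. miR-27a-3p is higher in all 6 tumours than in all 6 skin libraries, and the other 4 arms overlap.

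miR-27b-3p was one of the most abundant miRNAs of both tissues, and the others lay far below it. It was at rank 3 in WT skin, with 18.75 in each of the 3 libraries, and at rank 3 or 4 in KO skin, with 18.49, 18.49 and 18.75. It took rank 2, at 19.25, in all 4 KO tumours, while the 2 WT tumours were at rank 3 (18.75) and rank 1 (20.00). On the linear scale it made up 6.06% to 7.28% of the summed level of a skin library and 7.28% to 17.3% of that of a tumour. Libraries have nearly the same linear sum, so these percentages restate its ranks and are not measured shares of small RNA. Its differences between groups are likewise steps between the fixed values of ranks 1 to 4. Its order by mean level was WT SCC (19.38 ± 0.88, SD, n = 2), KO SCC (19.25 ± 0.00, n = 4), WT skin (18.75 ± 0.00, n = 3) and KO skin (18.58 ± 0.15, n = 3). The order of WT SCC against KO SCC lies within the spread of WT SCC. An SD of 0 means here that the rank was the same, not that the RNA level was.

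The other 4 arms ranked from 22 to 64 in every library. miR-27a-3p was at 14.65, 14.74 and 14.82 in WT skin and 14.65, 14.90 and 14.90 in KO skin. In tumours it was at 15.54 and 15.45 in WT and at 15.45, 15.08, 15.08 and 15.78 in KO. Every tumour lay above every skin library, which held in the same direction for 10.5% of the miRNAs tested. By mean level the order was WT SCC (15.49 ± 0.06), KO SCC (15.34 ± 0.34), KO skin (14.81 ± 0.14) and WT skin (14.73 ± 0.08). Neighbours within a tissue differed by less than the larger of their SDs.

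The mean of miR-23b-3p was highest in KO tumours, which overlapped with WT tumours. It was at 14.25, 14.19 and 13.86 in WT skin, 13.67, 13.91 and 13.99 in KO skin, 14.19 and 14.41 in WT SCC, and 14.37, 15.13, 14.74 and 14.90 in KO SCC. All 4 KO tumours lay above all 3 KO skin libraries, as 17.8% of tested miRNAs did, while 1 of the 2 WT tumours lay within the range of WT skin. The order by mean was KO SCC (14.78 ± 0.32), WT SCC (14.30 ± 0.16), WT skin (14.10 ± 0.21) and KO skin (13.86 ± 0.17). WT SCC and WT skin, next to each other in that order, overlapped.

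miR-23a-3p had group means close together. It was at 13.60, 13.86 and 13.67 in WT skin and 13.70, 13.67 and 13.70 in KO skin. In WT SCC it was at 14.07 and 13.86, and in KO SCC at 13.91, 13.91, 13.08 and 14.37, so the KO tumours held both its lowest and its highest value. Its 4 group means lay between 13.69 (KO skin) and 13.97 (WT SCC), closer together than the SD of 0.54 over the KO tumours.

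miR-24-3p had lower means in tumours than in skin. It was at 14.37, 14.50 and 14.12 in WT skin, 14.07, 14.25 and 14.82 in KO skin, 13.99 and 13.55 in WT SCC, and 13.38, 14.65, 13.86 and 14.07 in KO SCC. Of the 6 tumours, 4 lay below all skin libraries, 1 equalled the lowest of them (KO SCC replicate 4) and 1 lay within their range (KO SCC replicate 2). The order was KO skin (14.38 ± 0.39), WT skin (14.33 ± 0.20), KO SCC (13.99 ± 0.52) and WT SCC (13.77 ± 0.32). Neighbours in it differed by less than the larger of their SDs.

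**Figure D2:**
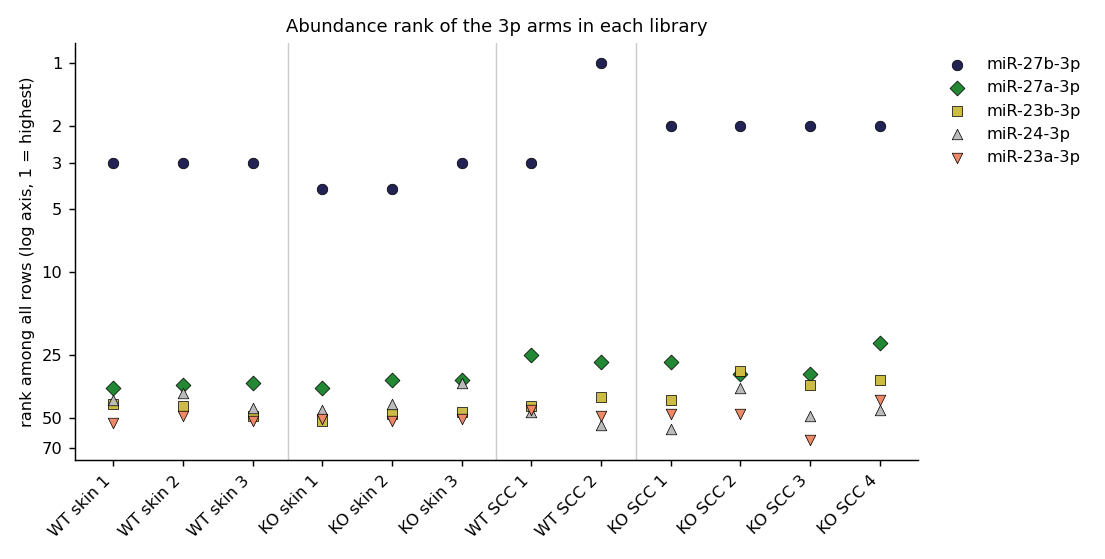
Rank of each 3p arm among the 1251 rows of the table (vertical axis, log scale, 1 is the highest level) in each library (horizontal axis); vertical lines divide the 4 groups. miR-27b-3p moves between ranks 1 and 4 and the other 4 arms between ranks 22 and 64.

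The first comparison sets tumours against untreated skin. With both genotypes given equal weight, miR-27a-3p, miR-27b-3p and miR-23b-3p rose in tumours, and miR-23a-3p and miR-24-3p were not called. In this contrast 20.4% of all 544 tested miRNAs were called higher and 21.5% lower (41.9% in all), so 3 of 5 higher and 0 of 5 lower is to be read against those shares. The median difference over the 5 was 0.56 (log2), and over all tested miRNAs 0.04. Differences are log2, SCC minus skin, ± SE, from limma fitted to all tested miRNAs with Benjamini-Hochberg adjustment over all of them.

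miR-27a-3p rose by 0.65 ± 0.16, or 1.56-fold (limma adjusted p = 0.00889; higher in 6 of 6 tumours than in all skin). miR-27b-3p also rose by 0.65 ± 0.19, or 1.57-fold (adjusted p = 0.0190; 5 of 6 tumours above all skin libraries). miR-23b-3p rose by 0.56 ± 0.17, or 1.48-fold (adjusted p = 0.0224; again 5 of 6). Of these, miR-27a-3p was called under all 22 alternatives, and the other 2 calls rest on single libraries. Without WT SCC replicate 2, miR-27b-3p was at 0.34 (adjusted p = 0.0526) and miR-23b-3p at 0.51 (0.0689). The call of miR-23b-3p also ended without WT skin replicate 3 (0.0545) or KO skin replicate 1 (0.0524).

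The difference of miR-23a-3p was 0.19 ± 0.21 (adjusted p = 0.503; 95% interval -0.27 to 0.66). miR-24-3p was at -0.48 ± 0.24 (adjusted p = 0.136; 95% interval -0.99 to 0.04), and without KO SCC replicate 2 it was at -0.58 and called (0.0392). The interval of miR-23a-3p includes rises as large as those of the 3 called arms, and that of miR-24-3p does not.

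**Figure D3:**
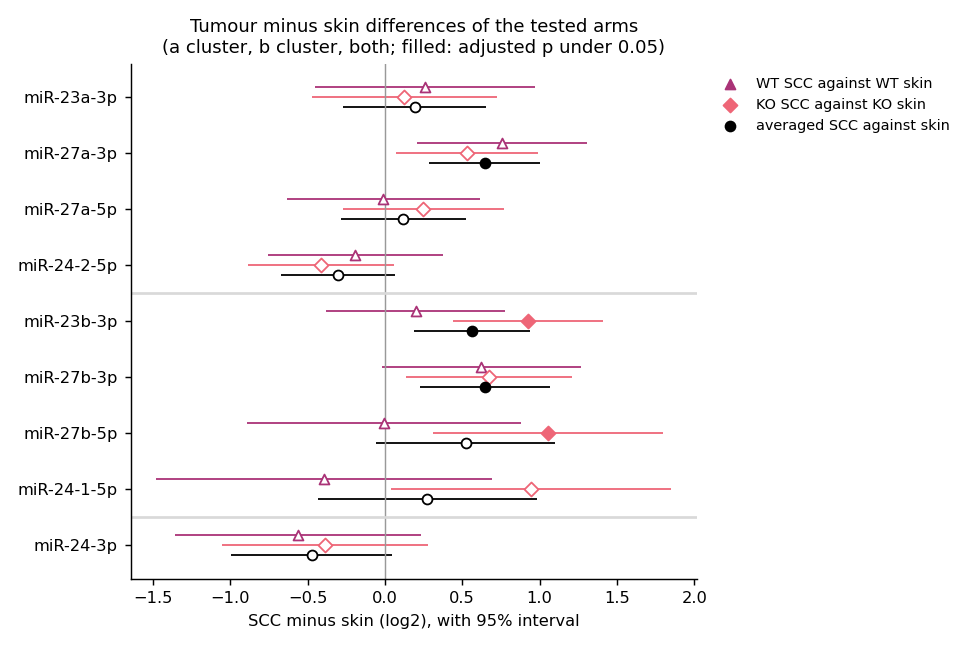
SCC minus skin difference (horizontal axis, log2) of the 5 main 3p arms and the 4 tested 5p arms, for WT, KO and their average; lines are 95% intervals from limma, and filled symbols have an adjusted p under 0.05. Filled are the averages of miR-27a-3p, miR-23b-3p and miR-27b-3p, and the KO differences of miR-23b-3p and miR-27b-5p.

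In KO mice alone, miR-23b-3p rose by 0.93 ± 0.22, or 1.90-fold (limma adjusted p = 0.00739), where 16.0% of tested miRNAs were called higher and 18.2% lower (34.2% in all). This call held under all 23 alternatives. The KO differences of miR-27b-3p (0.67 ± 0.24, adjusted p = 0.0530) and miR-27a-3p (0.53 ± 0.21, adjusted p = 0.0719) were not called. For each, all 4 KO tumours lay above all 3 KO skin libraries, as 17.8% of tested miRNAs did. miR-23a-3p and miR-24-3p overlapped between KO tumours and KO skin, where 20.2% of tested miRNAs were lower without overlap. Leaving out WT SCC replicate 1 or 2, which are in the fit through the shared spread, the difference of miR-27b-3p stayed at 0.67. With 1 WT tumour left, and its rank tied within WT skin and within KO tumours, only KO skin gave it a spread of its own. Calls from those fits are therefore not read as a result. miR-27b-3p was called under 4 other alternatives. Without KO SCC replicate 2, miR-27a-3p was at 0.62 (adjusted p = 0.0441) and called. miR-23a-3p was at 0.13 ± 0.27 and miR-24-3p at -0.39 ± 0.30 (adjusted p = 0.765 and 0.355).

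In WT mice (18.2% of tested miRNAs called in all) none of the 5 was called by limma, where 8.82% of tested miRNAs were called higher and 9.38% lower; 1 of the 5 had an unadjusted p under 0.05. It was miR-27a-3p, at 0.76 ± 0.25 (adjusted p = 0.0566), with both tumours above the 3 skin libraries, as 20.6% of tested miRNAs were. It was called under 6 of 23 alternatives, among them those without KO SCC replicate 2 (0.0465) or KO SCC replicate 4 (0.0378). miR-27b-3p was at 0.62 ± 0.29 (adjusted p = 0.177). That value came from 1 library: leaving out WT SCC replicate 1 it was 1.25, and with only that tumour kept it was 0. miR-24-3p was at -0.56 ± 0.36 (adjusted p = 0.327), with both WT tumours below the WT skin libraries, as 23.2% of tested miRNAs were. miR-23a-3p and miR-23b-3p were at 0.26 ± 0.32 and 0.20 ± 0.26.

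The second comparison asks what loss of TAp63 does within a tissue. In skin, no arm differed by more than 0.24 between genotypes, and 0 of 5 were called, with 0 at an unadjusted p under 0.05; of all tested miRNAs 0.00% were called, and 31 of 544 had an unadjusted p under 0.05. The largest was miR-23b-3p, at -0.24 ± 0.24 in KO against WT skin (limma adjusted p = 1, 95% interval -0.76 to 0.28). In tumours 0 of 5 were called, again with 0 at an unadjusted p under 0.05, where 0.184% of all tested were called and 46 had such a p. miR-23b-3p was at 0.49 ± 0.25 in KO against WT tumours (adjusted p = 0.577; 3 of 4 KO tumours above both WT tumours).

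The interaction, KO tumour effect minus WT tumour effect, was 0.73 ± 0.34 for miR-23b-3p (limma adjusted p = 0.613, 95% interval -0.03 to 1.48). Its effects in KO and WT mice are therefore not shown to differ. For the other 4 arms the interaction lay between -0.23 (miR-27a-3p) and 0.17 (miR-24-3p). None of the 5 had an unadjusted p under 0.05, and 0.00% of all tested miRNAs were called, with 41 having such a p.

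The 5p arms of the same hairpins were measured as separate rows, and tell the loci apart where the 3p arms do not. Of 9 rows from these loci (6 arms of the 2 clusters and 3 of miR-3074, which lies antisense to miR-24), 4 passed the filter on low values. miR-23a-5p and the 3 rows of miR-3074 were at the floor in all 12 libraries, and miR-23b-5p was above it only in KO SCC replicate 3, at 3.37 against a floor of 3.32. For miR-23 and miR-27 the 3p arm dominated: miR-27b-3p exceeded miR-27b-5p by 9.65 ± 0.30 (log2, SD, n = 6) in skin.

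miR-27b-5p and miR-24-1-5p of the b cluster had their highest group mean in KO tumours, and so did miR-23b-3p, while miR-27b-3p had its highest in WT tumours (19.38 against 19.25). miR-27b-5p was at 8.96, 8.94 and 9.46 in WT skin, 9.01, 9.06 and 8.66 in KO skin, 9.36 and 8.86 in WT SCC, and 9.50, 10.71, 10.24 and 9.41 in KO SCC. It rose in KO mice by 1.05 ± 0.34 (limma adjusted p = 0.0334; 16.0% of tested miRNAs were called higher), with all 4 KO tumours above all KO skin libraries (17.8% of tested), and was at -0.01 ± 0.40 in WT mice (adjusted p = 1). The KO call ended without any 1 of the 3 KO skin libraries (adjusted p 0.0724, 0.0616 and 0.109) and without KO SCC replicate 2 (0.0601) or 3 (0.0648). It ended as well with the 2 KO groups fitted alone (0.0688) and when the 5 most abundant other miRNAs were left out (0.0708).

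miR-24-1-5p was at 7.02, 6.79 and 6.11 in WT skin, 5.28, 6.49 and 6.74 in KO skin, 6.17 and 6.33 in WT SCC, and 7.004, 7.79, 6.73 and 6.93 in KO SCC. Of the KO tumours, 3 of 4 lay below the highest WT skin library (7.02). All 4 KO tumours lay above both WT tumours for this arm and for miR-27b-5p, as 6.07% of tested miRNAs did (4.23% lay below), and neither difference was called. In SCC the KO minus WT difference was 0.85 ± 0.38 for miR-27b-5p (adjusted p = 0.538) and 0.87 ± 0.47 for miR-24-1-5p (adjusted p = 0.589). The lowest KO tumour lay just below the highest KO skin library. Its difference was 0.94 ± 0.41 in KO mice (adjusted p = 0.100) and -0.39 ± 0.49 in WT mice (adjusted p = 0.651), and neither was called. KO SCC replicate 2 held the highest value of miR-23b-3p, miR-27b-5p and miR-24-1-5p alike, so these 3 arms share that library.

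Neither 5p arm of the a cluster was called. miR-27a-5p was between 8.24 and 8.83 in skin and between 8.40 and 8.93 in tumours, with an averaged difference of 0.12 ± 0.18 (limma adjusted p = 0.632). Its 3p partner rose, and the 3p minus 5p difference was 6.27 ± 0.24 (log2, SD, n = 6) in skin and 6.74 ± 0.29 (n = 6) in tumours, with KO SCC replicate 2 (6.21) the only tumour within the range of skin (5.98 to 6.50). This difference between arms was not tested, nor set against other pairs, so a shift between the arms is not shown. miR-24-2-5p was at 11.73, 11.89 and 11.89 in WT skin, 11.89, 11.73 and 11.95 in KO skin, 11.73 and 11.57 in WT SCC, and 11.40, 11.78, 11.05 and 11.54 in KO SCC. Its averaged difference was -0.30 ± 0.17 (adjusted p = 0.180; 95% interval -0.67 to 0.07). miR-24-2-5p exceeded miR-24-1-5p by 5.44 ± 0.67 (log2, SD, n = 6) in skin, 5.40 ± 0.22 (n = 2) in WT tumours and 4.33 ± 0.26 (n = 4) in KO tumours. In all 4 KO tumours this gap was smaller than in every other library, from 3.99 to 4.61 against 4.70 or more. The gap was not tested, nor set against other pairs. Its nearest values, 4.61 in KO SCC replicate 4 and 4.70 in WT skin replicate 1, lay close together. Levels of different sequences also depend on how well each is cloned and sequenced, which was not tested.

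**Figure D4:**
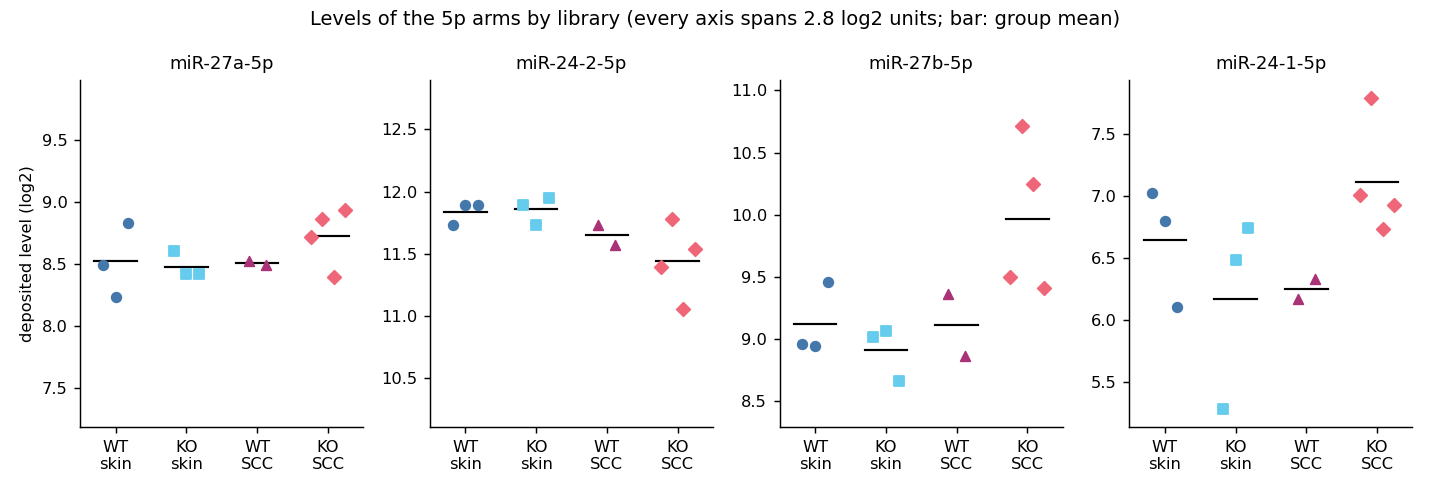
Deposited log2 level (vertical axis) of the 4 tested 5p arms in the 12 libraries, by group (WT skin n = 3, KO skin n = 3, WT SCC n = 2, KO SCC n = 4); points are libraries and bars are group means. The b cluster arms miR-27b-5p and miR-24-1-5p are highest in KO SCC replicate 2, at 10.71 and 7.79.

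To ask whether the a and b paralogs, or the mates of 1 cluster, kept their proportion, log2 differences were taken within each library. A scaling of the library cancels in them, but the quantile normalization does not. Each difference is therefore a gap between rank values, not a measured ratio of RNA. These 4 differences were tested for tissue and for genotype by exact two-sided permutation of the libraries within strata, with Benjamini-Hochberg adjustment over the 8 tests. The smallest p possible was 0.00286 for tissue and 0.00333 for genotype. None of the 8 passed an adjusted p of 0.05.

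miR-27a-3p exceeded miR-23a-3p by 1.07 ± 0.14 (log2, SD, n = 6) in skin and by 1.53 ± 0.28 (n = 6) in tumours. Skin libraries ranged from 0.88 to 1.23 and tumours from 1.16 to 2.00, and KO SCC replicate 2 was the only tumour within the range of skin. The change over the genotypes was 0.45 (exact permutation p = 0.0114, adjusted p = 0.0914), and without KO SCC replicate 2 it was 0.51 (exact adjusted p = 0.0400). The proportion of these 2 arms of the a cluster is therefore not shown to differ between the tissues with all libraries kept.

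miR-27b-3p exceeded its paralog miR-27a-3p by 3.89 ± 0.18 in skin and by 3.90 ± 0.50 in tumours (log2, SD, n = 6 each), and the change over the genotypes was 0.00 (exact permutation p = 0.989). As linear ratios of the normalized values this is 12.1 to 17.2 in skin libraries and 9.28 to 23.4 in tumours. Both tumour extremes were in the 2 WT libraries. miR-23b-3p exceeded miR-23a-3p by 0.28 ± 0.22 in skin and 0.75 ± 0.57 in tumours, a change of 0.37 (exact permutation p = 0.157, adjusted p = 0.629). In KO SCC replicate 3 miR-23b-3p was 3.17 times miR-23a-3p, and in skin 0.976 to 1.57 times. miR-27b-3p minus miR-23b-3p changed by 0.09 between tissues (exact permutation p = 0.809). The genotype changes of the 4 differences ran from -0.27 to 0.20, with exact permutation p-values of 0.28 to 0.747.

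**Figure D5:**
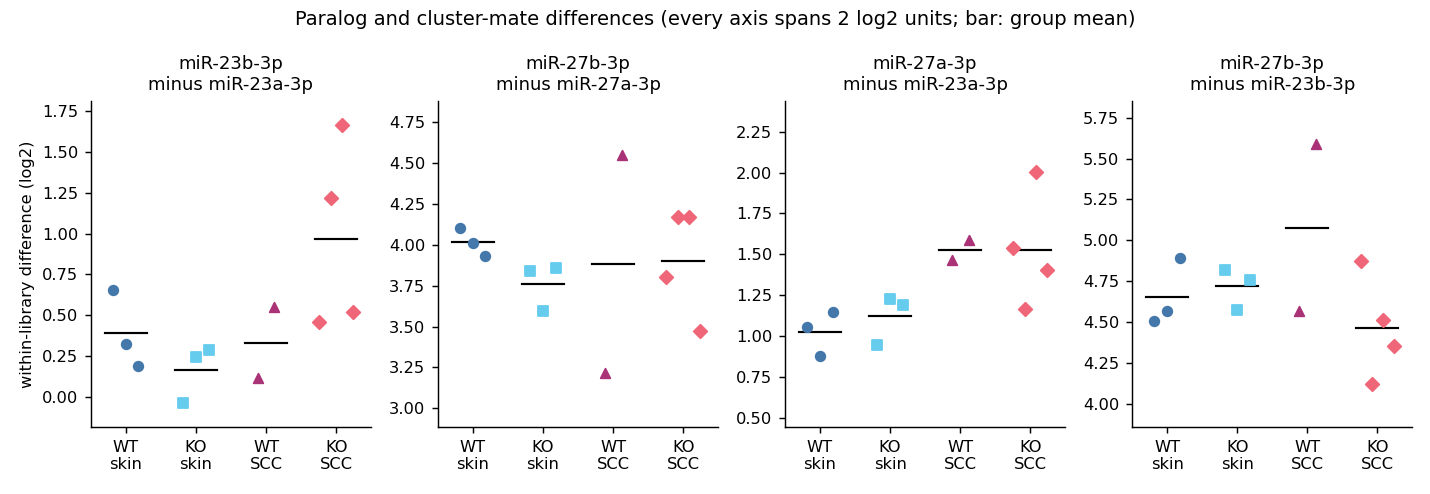
Within-library log2 difference (vertical axis) for 2 pairs of paralogs and 2 pairs of cluster mates, by group (WT skin n = 3, KO skin n = 3, WT SCC n = 2, KO SCC n = 4); points are libraries and bars are group means. miR-27a-3p minus miR-23a-3p lies at 0.88 to 1.23 in skin and at 1.16 to 2.00 in tumours.

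The arms were not all highest in the same KO tumour. KO SCC replicate 4 had the highest miR-23a-3p (14.37) and miR-27a-3p (15.78) of all 12 libraries. KO SCC replicate 2 had the highest miR-23b-3p (15.13) and, among KO tumours, the highest miR-24-3p (14.65) and a-cluster miR-24-2-5p (11.78). miR-27b-3p was at 19.25 in all 4. KO SCC replicate 3 had the lowest miR-23a-3p (13.08) of all 12 libraries, with miR-23b-3p at 14.74.

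The miRNAs most like each arm over the 12 libraries were sought among 213 others, those whose mean level was in the upper 40% of tested miRNAs. The libraries share the tissue difference and the rank scale, so r is a description. For miR-27a-3p the 3 nearest by Pearson's r were miR-106b-3p (0.90), miR-138-5p (0.89) and miR-92a-3p (0.89). For miR-23b-3p they were miR-106b-5p (0.92), miR-98-5p (0.90) and miR-31-5p (0.89), and for miR-27b-3p miR-30b-5p (0.84), miR-30c-5p (0.76) and miR-20a-5p (0.74). miR-23a-3p had miR-19b-3p (0.81), miR-29b-3p (0.68) and miR-19a-3p (0.67). The lowest values were those of miR-24-3p, with miR-146b-5p (0.65), the a-cluster arm miR-24-2-5p (0.64) and miR-342-3p (0.63).

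Some other miRNAs carry a seed like those above. The miR-27 seed is shifted by 1 base in miR-128-3p, a miRNA known from brain: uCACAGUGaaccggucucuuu. Unlike miR-27, it fell in tumours, by 1.23 ± 0.26 (log2, averaged, limma adjusted p = 0.00341), from 8.46 to 9.33 in skin to 7.18 to 8.45 in SCC, with all 6 tumours below all 6 skin libraries, as 11.6% of tested miRNAs were. At its highest it was at 9.33, so it lay far below both miR-27 paralogs in every library. miR-673-5p, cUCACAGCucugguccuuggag, has the bases 2 to 7 of miR-27 in the same place and fell by 1.25 ± 0.40 (adjusted p = 0.0287), from 5.83 to 7.49 in skin to 3.81 to 6.01 in tumours. That call ended without any 1 of 5 libraries: WT skin replicate 1, 2 or 3, KO skin replicate 1 or WT SCC replicate 1 (adjusted p 0.0503 to 0.125). The 4 miRNAs with the seed of miR-24-3p (miR-6413, miR-6410, miR-6369 and miR-5124b) were at the floor in at least 11 of 12 libraries, and miR-216a-3p, also with a shifted miR-27 seed, in all 12.

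Some markers of other cell types differed between tissues beside these changes, and their part in them was not tested. Counts are from the averaged contrast, where limma called 20.4% of all tested miRNAs higher and 21.5% lower. Of the 2 endothelial miRNAs, miR-126-5p rose and miR-126-3p was not called, and their summed level was 15.53 to 15.94 (log2) in skin and 15.87 to 16.50 in tumours. Of 4 leukocyte miRNAs 2 rose, with a summed level of 14.19 to 14.65 in skin and 13.96 to 15.91 in tumours. Of 4 keratinocyte miRNAs 1 rose and 1 fell, with 18.22 to 18.70 in skin and 18.26 to 19.21 in tumours. Of 5 tested striated muscle miRNAs 4 fell (miR-208b-3p, a further one, was at the floor in all libraries). Among 3 smooth muscle miRNAs 1 fell, and among 4 fibroblast miRNAs 2 fell. The summed level of smooth muscle miRNAs was 17.28 to 19.26 in skin and 17.08 to 18.49 in tumours, and that of fibroblast miRNAs 15.50 to 16.06 and 15.23 to 16.04. Of 4 erythroid miRNAs 2 rose, while miR-486-5p was at -0.69 and not called. Their summed level was 15.10 to 16.19 in skin and 14.07 to 16.58 in tumours. Both melanocyte miRNAs fell, with a summed level of 11.18 to 12.67 in skin and 6.47 to 10.73 in tumours.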

How the data were processed

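The authors deposited 1 table of log2 values for 12 libraries. The values themselves show quantile normalization between libraries and a floor at the log2 of 10. On the linear scale each library sums to between 6065014 and 6065621, and 647 of 1251 rows are at the floor in all libraries. Columns were matched to samples by title, and replicates numbered in accession order. Per the submitters' processing notes the build was mm10; aligner, counter and miRBase release: not given in the sources used here. A filter kept 544 miRNAs that exceeded the floor in 2 or more libraries. They were fitted with limma 3.58.1 (R 4.3.3; 4 group means, trended and robust variances, 8 residual degrees of freedom), adjusting p over all 544 in each contrast with a threshold of 0.05. The fit was checked on simulated data. Named are the 5 members, other arms of their hairpins, miRNAs with a shared or shifted seed, and the 3 miRNAs nearest to each member in pattern. Members and lists were chosen with earlier results of these data known. Alternatives varied pseudocount, filter, scaling, variance model, weights, groups fitted, pairing and libraries. Sequences are from RefSeq, where 4 of the 5 members had an entry.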

Additional observations from a re-analysis of the deposited data

Results flagged for a closer look

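For 3 arms of the b cluster every library of 1 group lay on one side of its comparison group's mean and every library of the other group on the opposite side. For miR-23b-3p, all KO skin libraries lay below the mean of WT skin and all KO tumours above the mean of WT tumours, and the genotype difference was 0.73 (log2) larger in tumours than in skin. For miR-27b-5p the same held, with 1.06. For miR-24-1-5p, both WT tumours lay below the mean of WT skin and all 4 KO tumours above the mean of KO skin, and the tumour effect was 1.34 larger in KO mice. The same 3 differences were tested as the interaction with limma and not called (adjusted p = 0.613 for each). Their unadjusted limma p-values were 0.0579, 0.0682 and 0.0612. The pattern was looked for in the members, other arms and seed relatives, both as a genotype difference and as a tumour effect. Its share among all tested miRNAs was not counted. The pattern is therefore not shown to be a trait of the b cluster. No library of the KO tumours was an outlier by Dixon's test in the 10 arms and seed relatives that could be checked; miR-27b-3p, with 1 value in all 4, could not be.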

How the results depend on the processing

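Depth is unknown and WT SCC has 2 libraries, which limits every WT tumour value. Of 1220 alternative values for the 5 members, 4 other arms and 2 seed relatives, 1152 kept direction and call, 21 lost a call, 16 gained one and 31 changed sign; none of the values that changed sign was called. Where no cause is given, the cause was not tested. Median-ratio scaling moved the median averaged difference of all tested miRNAs from 0.04 to 0.16, and that of miR-27a-3p from 0.65 to 0.77.

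The number of members called in the averaged contrast was 3, and 1 to 4 with 1 library left out: 1 without WT SCC replicate 2 (miR-27a-3p) and 4 without KO SCC replicate 2 (miR-24-3p added). In WT mice it was 0, and 1 (miR-27a-3p) with the filter at 1 library, median-ratio scaling, library quality weights or only the groups compared, and 0 to 1 with 1 library left out. In KO mice it was 1, and 2 (miR-27b-3p added) with the filter at 6 libraries, quality weights or only the groups compared, 3 (miR-27a-3p also) with median-ratio scaling, and 1 to 2 with 1 library left out. Calls over all tested miRNAs moved too. The averaged contrast called 228 of 544, and 221 of 528 without KO SCC replicate 2. In WT mice 99 of 544 were called, and 95 of 604 with the filter at 1 library. Median-ratio scaling gave 105, quality weights 104 and only the groups compared 132 of 442. In KO mice 186 of 544 were called, and 187 of 437 with the filter at 6 libraries. Median-ratio scaling gave 192, quality weights 185 and only the groups compared 155 of 530.

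Signs changed as follows. With the 5 most abundant other miRNAs left out, miR-23a-3p was at -0.0106 in KO tumours against KO skin and 0.0852 in KO against WT skin, and the miR-27b-3p interaction at -0.0624. With median-ratio scaling, miR-23a-3p was at 0.0288 in KO against WT skin, the miR-27b-3p interaction at -0.0056, and miR-27a-5p and miR-27b-5p at 0.137 and 0.139 in WT tumours against skin. With quality weights these 2 were at 0.0674 and 0.0719, and miR-24-3p at -0.0030 in KO against WT skin. With 1 library left out, miR-23a-3p ran from -0.0593 to 0.374 (KO tumours against skin), -0.0718 to 0.0607 (KO against WT skin), -0.333 to 0.100 (KO against WT SCC) and -0.317 to 0.116 (interaction). miR-27b-3p ran from -0.750 to 0.496 (KO against WT SCC) and -0.574 to 0.673 (interaction). miR-24-3p ran from -0.171 to 0.202 (KO against WT skin), -0.0022 to 0.446 (KO against WT SCC) and -0.0501 to 0.398 (interaction). In WT tumours against skin, miR-27a-5p ran from -0.152 to 0.145 and miR-27b-5p from -0.257 to 0.240.

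Of the within-library differences, with 1 library left out miR-27b-3p minus miR-27a-3p ran from -0.332 to 0.337 between tissues and -0.451 to 0.218 between genotypes. miR-27a-3p minus miR-23a-3p ran from 0.374 to 0.514 between tissues and -0.0327 to 0.107 between genotypes. miR-27b-3p minus miR-23b-3p ran from -0.171 to 0.342 between tissues, and was -0.0169 with labels permuted without strata.

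The titles number skin and tumour libraries 1 to 6, but number 3 joins a WT skin library to a KO tumour. Skin and tumours also came from mice of different age and treatment, so the numbers are not taken as pairs. Same-numbered libraries did not deviate together (r from -0.146 to 0.0749, and 1 of 6 correlated best with its own number). With the title number as a replicate block, the averaged contrast called 1 member, miR-27a-3p (miR-23b-3p at adjusted p = 0.0678 and miR-27b-3p at 0.0619). Of all 544 tested miRNAs it called 163 with the block and 228 without it. In that fit miR-23a-3p was at 0.149 (KO against WT skin) and 0.0048 (KO against WT SCC), miR-24-3p at -0.547 and -0.0637, and miR-27a-5p and miR-27b-5p at 0.145 and 0.161 in WT tumours against skin. miR-673-5p was at -1.09 (averaged, adjusted p = 0.124) and -1.60 (KO, 0.0977).

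Of all tested miRNAs, the WT contrast called 99, but 41 with the block and 65, 61 and 30 without WT skin replicate 1, WT skin replicate 2 and WT SCC replicate 1. The KO contrast called 186, and 123 with the block. KO against WT skin called 0, but 22 with quality weights, 1 without WT skin replicate 3 and 2 without KO skin replicate 3. KO against WT SCC called 1, and 0 to 10 over the alternatives, with 10 without WT SCC replicate 2. The interaction called 0, but 10 without WT SCC replicate 2.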
